A study of Sus scrofa with 6 samples.

Results

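The proteins of the mitochondrial ribosome were examined in the longissimus dorsi, the long muscle of the back, of Nanyang Black pigs. Members were all genes of the deposited expression table whose symbol was MRPL (large subunit) or MRPS (small subunit) followed by a number, with or without a closing letter. This gave 58 of 25878 listed genes, 36 of the large and 22 of the small subunit. The HF group (HF01 to HF03) held pigs of high fat deposition and the LF group (LF01 to LF03) pigs of low fat deposition, with 3 pigs and 1 library per pig in each. By the study's methods, which give the meaning of both names, all were female siblings from a single pen, chosen out of a larger set by the fat measured in or over this muscle. No treatment separated the groups, and the labels give breed, tissue and an age of 180 days for every pig. Levels are in FPKM, fragments scaled to transcript length and to the mapped fragments of the library, so that genes of different length can be set side by side.

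The mitochondrial ribosome translates the few messages of the mitochondrial genome, all of which encode subunits of the respiratory chain and the ATP synthase. Its ribosomal RNAs are transcribed inside the organelle, whereas its proteins are encoded in the nucleus, made in the cytosol and imported. Some of these proteins descend from those of the bacterial ribosome, and others are found only in mitochondrial ribosomes. Skeletal muscle fibres depend on this machinery for oxidative metabolism.

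The HF pigs had lower FPKM values than the LF pigs for most of the mitochondrial ribosome, while no single member passed the test. The log2 fold change, HF minus LF, was negative for 53 of 58 members (91.4%), against 51.9% of all genes tested, and its median was -0.42, against -0.03 over those 11136 genes. MRPL55 lay farthest down, at 2.79 ± 0.00870 FPKM in HF against 8.05 ± 1.67 in LF (SD, n = 3 each). MRPL57 went the other way, at 36.0 ± 2.31 FPKM in HF against 14.1 ± 4.84 in LF. Both encode proteins of the large subunit that were classed here as mitochondria-specific.

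Differences were tested with limma on log2(FPKM + 0.1) over all genes whose mean reached 0.5 FPKM, and the threshold was a Benjamini-Hochberg adjusted p of 0.05. On this scale the change of low genes is understated. At that threshold 0 of 58 members were called in either direction, with 0.0359% of all tested genes called higher and 0.0359% called lower in HF. At an unadjusted p under 0.05, 25 members were lower and 1 was higher in HF, against 13.8% and 11.0% of all tested genes. At an adjusted p under 0.10, the counts were 10 lower and 1 higher, where 3.49% of all tested genes were lower and 2.83% higher. That total of 11 was 1 without HF01, 0 without HF02, HF03, LF01 or LF03 (each left out alone), and 12 without LF02.

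For 34 members all 3 HF pigs lay below all 3 LF pigs, for 1 member (MRPL57) all lay above, and for 23 the groups overlapped. Over all tested genes the shares were 17.1% below and 12.8% above. Thus 58.6% of the members were separated downward in HF. With 3 pigs against 3, an exact permutation test of a single gene cannot give a p under 0.1, and every separated member sits at that value.

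Genes expressed at the members' level were also lower in HF, though by less. Of the 6152 tested genes whose mean lay within the members' range of 2.89 to 59.1 FPKM, 62.2% had a log2 fold change below 0 and a median of -0.14, and 22.1% were separated downward. The members' median stood 0.28 below theirs on the log2 scale (a difference of -0.28), and the difference was -0.16 without LF02. Only the range was matched, and the median mean level was 8.34 FPKM in those genes against 14.4 FPKM in the members. When the minimum was raised to 5 FPKM, the median log2 fold change was -0.21 over the 5299 genes then tested. It was -0.45 over the 54 members among them. The part of level within the range was not tested. These are descriptions with no test of the list, because the members were proposed with earlier results of these data known.

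**Figure D1:**
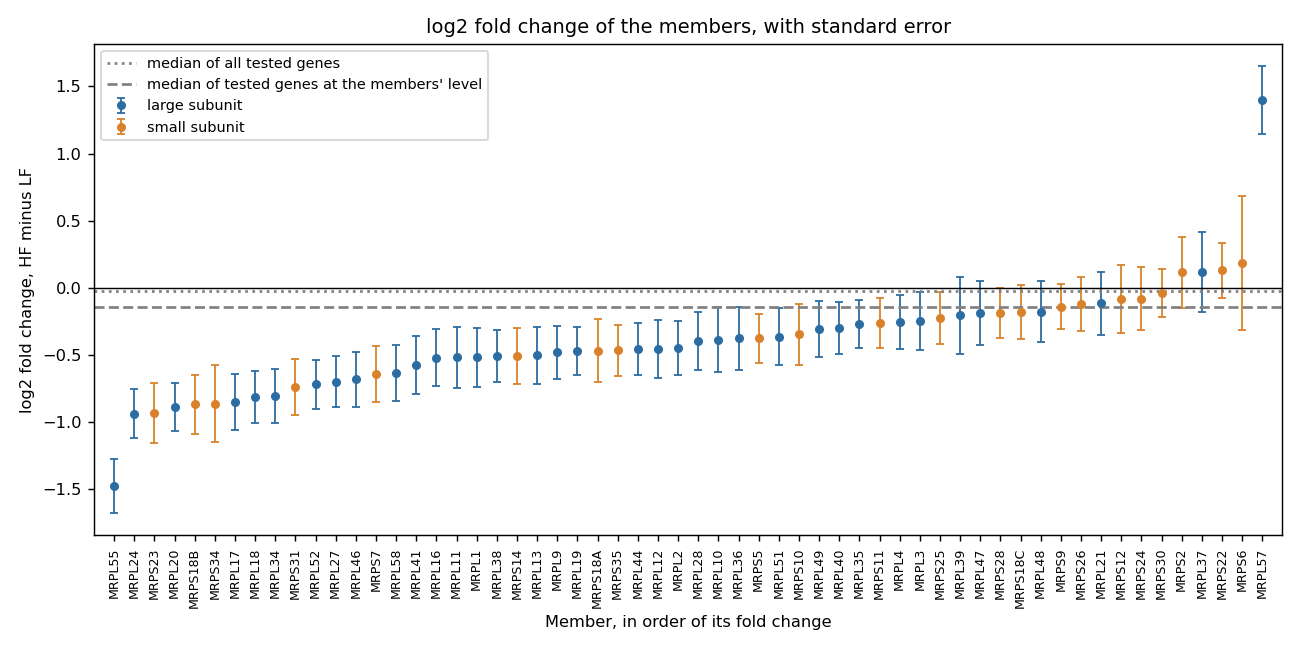
log2 fold change of each member (y axis, HF minus LF, bars give the standard error), in order along the x axis and coloured by subunit, with dotted and dashed lines at the medians of all tested genes (-0.03) and of tested genes at the members' level (-0.14). Nearly all members lie below 0, MRPL55 at -1.48 and MRPL57 at 1.40 stand at the ends, and 6 members close to 0 turn positive under upper-quartile scaling.

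All members were expressed in every pig, with none listed at 0. Mean levels over the 6 pigs spanned 20.4-fold. The highest belonged to MRPL28, MRPL51 and MRPL27 (59.1, 58.2 and 58.1 FPKM), and the lowest to MRPS7, MRPL21, MRPS30 and MRPL40 (2.89, 3.34, 4.54 and 4.62 FPKM). Members of the large subunit had a median mean level of 20.3 FPKM and those of the small subunit 10.6 FPKM. The fold change did not belong to a single range of levels. Its median was -0.47 among the 29 members with the higher means and -0.38 among the 29 with the lower means.

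Taken per pig, the summed level of the 58 members was 1055, 867.7 and 1006 FPKM in pigs HF01 to HF03, against 1216, 1335 and 1370 FPKM in pigs LF01 to LF03. The groups did not overlap in these sums of FPKM as deposited, and the ratio of the means was 0.747. The separation depends on scaling. Upper-quartile factors, by which values are divided, were 0.880 in HF01 and 1.04 in LF01. Divided by them, the sum of HF01 lies above that of LF01. The median member stood at 12.5, 10.3 and 11.13 FPKM in the HF pigs, against 15.1, 16.4 and 17.3 FPKM in the LF pigs. HF02 contributed most to the low side, being the lowest of all 6 pigs for 31 members, with 6 for HF01 and 13 for HF03. On the high side, LF03 was the highest pig for 25 members, LF02 for 19 and LF01 for 8.

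Set against other genes of the same library, the separation was narrow. As medians of log2 deviations from each gene's mean, the members stood at -0.12, -0.35 and -0.13 in pigs HF01 to HF03, against 0.12, 0.23 and 0.29 in pigs LF01 to LF03. Tested genes at the members' level stood at -0.17, -0.015 and -0.014 in the HF pigs, against 0.062, -0.027 and 0.19 in the LF pigs. Members minus those genes gave 0.051, -0.34 and -0.12 in the HF pigs, against 0.062, 0.25 and 0.11 in the LF pigs. In HF01 the members were thus not low relative to their own library, and HF01 and LF01 were almost level on this measure, which was added after the values were seen.

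**Figure D2:**
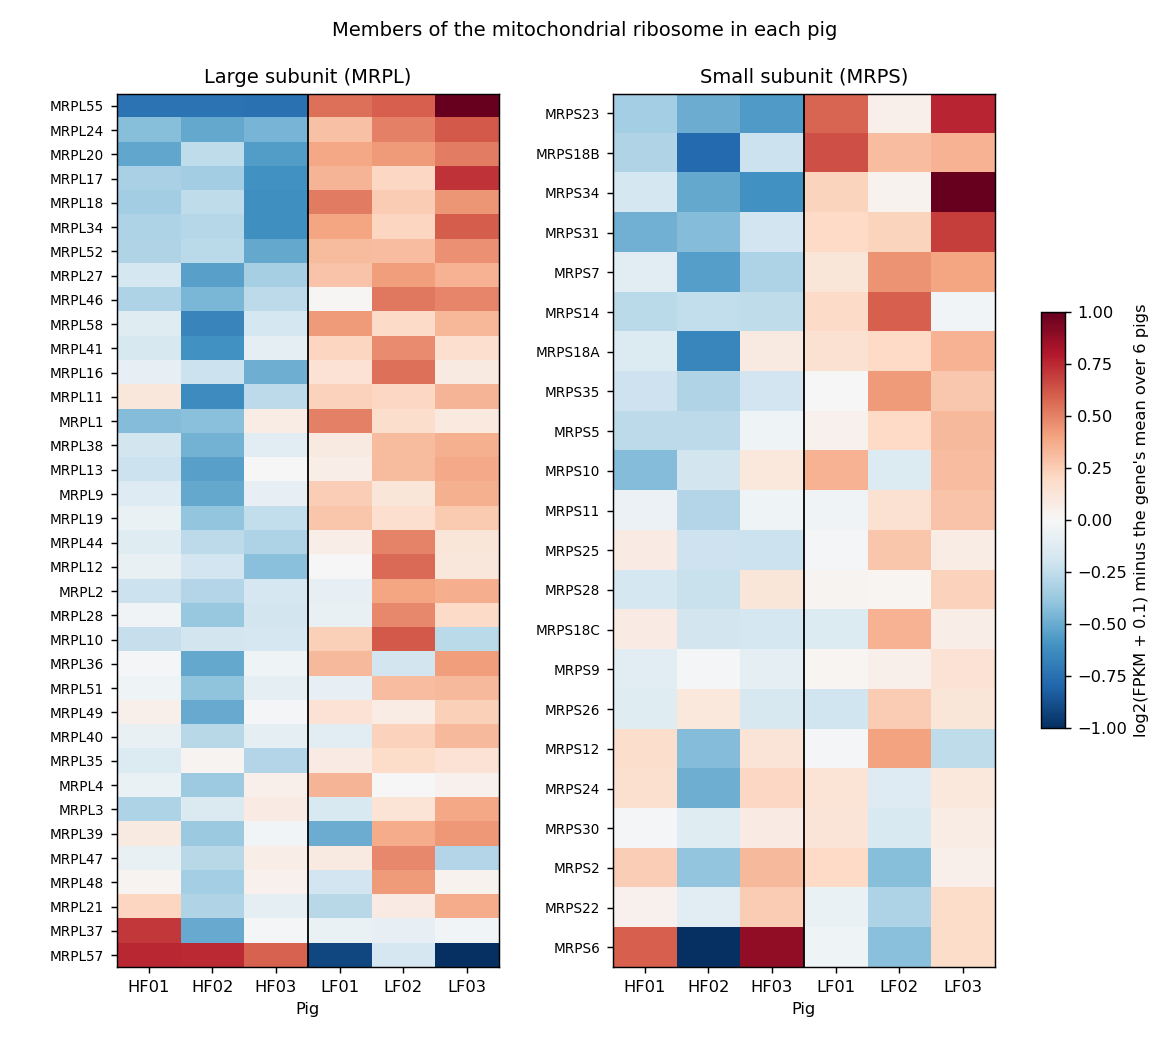
Every member (rows) in every pig (columns, HF left of the black line), as log2(FPKM + 0.1) minus the mean of that gene over the 6 pigs, with blue below and red above the mean. The upper rows of each panel are blue in HF and red in LF, HF02 is the darkest blue column for many members, and MRPL57 and MRPS6 show other patterns.

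Markers of the cell types in muscle were measured in the same libraries. Some transcripts of every muscle fibre are listed at 0 in single libraries: ACTA1, skeletal muscle actin, in HF01 and HF03, and the mitochondrially encoded ATP8, ATP6, COX1 and COX3 in LF02. Fibre markers summed to 7753 to 24640 FPKM in HF and 18530 to 27280 FPKM in LF, with 3 of 6 tested genes positive in log2 fold change. The sums of HF01 and HF03 hold no ACTA1, which stood at 13731 FPKM in HF02 and 10272 to 15140 FPKM in LF. Those sums are therefore not comparable with the sums of the other pigs. Fibroblast markers (6 of 6 positive) summed to 257 to 656 FPKM in HF and 245 to 293 FPKM in LF. Smooth muscle markers (5 of 5 positive) summed to 161 to 349 FPKM in HF and 93.8 to 186 FPKM in LF, and Schwann cell markers (2 of 3) to 21.8 to 55.1 FPKM in HF and 14.7 to 17.1 FPKM in LF. Adipocyte markers (5 of 5 tested) summed to 110 to 255 FPKM in HF and 70.5 to 168 FPKM in LF. The sums were 58.6 to 73.4 FPKM in HF and 34.8 to 62.5 FPKM in LF for endothelial markers (4 of 4), 6.07 to 19.5 FPKM and 8.01 to 10.9 FPKM for macrophage markers (4 of 4), and 65.4 to 115.9 FPKM and 26.1 to 92.7 FPKM for red cell markers (1 of 1 tested). None of the defining markers of these other cell types that the table lists was at 0. In bulk muscle, fewer fibres and less message per fibre cannot be told apart, and the part of cell makeup in the values of the members was not tested.

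In the large subunit, 34 of 36 members had a log2 fold change below 0, the median was -0.47, and 23 were separated downward. The large subunit carries the peptidyl transferase centre, where amino acids are joined, and the tunnel through which the new chain leaves. In summed FPKM as deposited it reached 752.4, 625.9 and 687.5 in the HF pigs, against 863.9, 985.8 and 984.6 in the LF pigs, with no overlap. Under upper-quartile scaling HF01 lies above LF01 in this sum.

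MRPL55 had 2.79, 2.80 and 2.78 FPKM in pigs HF01 to HF03, against 6.98, 7.20 and 9.98 FPKM in pigs LF01 to LF03. The HF pigs lay almost on a single value, and the lowest LF pig was more than double any of them. The log2 fold change was -1.48 (SE 0.20, limma adjusted p = 0.0544). The gene, ENSSSCG00000029050, lies on chromosome 2 of Sscrofa11.1, at chr2:51239024-51247521. Its model shares 2251 bases with C1orf35, whose values were 15.6, 16.9 and 15.6 FPKM in HF, against 25.8, 25.7 and 37.9 FPKM in LF (log2 fold change -0.86). Both genes thus showed the same order of groups, and the table does not tell to which gene fragments in the shared bases were given. The adjusted p of MRPL55 was under 0.05 in 4 alternatives, among them 0.0485 without LF02, and lay between 0.0412 and 0.261 over those run.

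MRPL57 had 37.4, 37.3 and 33.4 FPKM in the HF pigs, against 11.7, 19.7 and 10.9 FPKM in the LF pigs. The lowest HF pig lay well above the highest LF pig, LF02. The log2 fold change was 1.40 (SE 0.25, limma adjusted p = 0.0778), and MRPL57 was the single member separated upward. The adjusted p was 0.0310 without LF02 and lay between 0.0310 and 0.261 over the alternatives run. The gene, ENSSSCG00000031280, lies at chr11:1321085-1321828 and shares 254 bases with SKA3, a kinetochore gene listed at 0.253 to 0.392 FPKM in HF and 0.136 to 0.493 FPKM in LF.

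The ratio of MRPL57 to MRPL55, both built into the same subunit, was 13.4, 13.3 and 12 in pigs HF01 to HF03, against 1.68, 2.73 and 1.09 in pigs LF01 to LF03. These genes were chosen as the ends of the range, so the ratio is a description. No other member had a log2 fold change beyond 1 in size.

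Among the large subunit members classed here as descendants of bacterial proteins, 22 of 22 had a negative log2 fold change (median -0.48). In this count MRPL21 turns positive under upper-quartile scaling. MRPL24, whose homologue in Escherichia coli helps to start assembly of the subunit, had 21.4, 20.1 and 20.7 FPKM in HF, against 35.1, 40.8 and 43.9 FPKM in LF. Its groups were far apart relative to their spread (log2 fold change -0.94, SE 0.18, limma adjusted p = 0.0808). It shares 1926 bases with RRNAD1, which stood at 1.67 to 2.09 FPKM in HF and 1.92 to 2.54 FPKM in LF.

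MRPL20, the homologue of another early assembly protein of that bacterium, had 5.83, 7.03 and 5.66 FPKM in HF, against 10.99, 11.3 and 12.03 FPKM in LF (log2 fold change -0.89, SE 0.18, limma adjusted p = 0.0808). The SD within groups was 0.749 FPKM in HF and 0.528 FPKM in LF, small beside the gap between them.

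MRPL18, related to a bacterial protein that binds a small ribosomal RNA lacking from the mammalian mitochondrial ribosome, had 33.9, 36.2 and 28.2 FPKM in HF, against 62.0, 51.6 and 58.8 FPKM in LF. MRPL17, whose bacterial relative sits by the exit of the peptide tunnel, had 20.6, 20.4 and 17.0 FPKM in HF, against 32.8, 29.8 and 42.8 FPKM in LF. MRPL34, a very short protein in bacteria, had 29.4, 29.8 and 23.8 FPKM in HF, against 47.8, 42.2 and 55.3 FPKM in LF. In all of these HF03 was the lowest pig and no HF pig reached the lowest LF pig. Their log2 fold changes were -0.81, -0.85 and -0.80, each with a limma adjusted p of 0.0899.

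MRPL27, whose bacterial homologue reaches towards the peptidyl transferase centre, had 49.9, 38.6 and 44.7 FPKM in HF, against 68.7, 75.1 and 71.7 FPKM in LF (log2 fold change -0.70, limma adjusted p = 0.0982). MRPL28, the most abundant member, had 56.6, 44.7 and 51.1 FPKM in HF, against 55.0, 80.9 and 66.3 FPKM in LF. In MRPL28 the groups overlapped through HF01 and LF01 (log2 fold change -0.40, limma adjusted p = 0.291). MRPL21 was low and overlapped as well, with 3.84, 2.66 and 3.09 FPKM in HF, against 2.70, 3.49 and 4.29 FPKM in LF.

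MRPL12, a protein of the stalk that recruits translation factors, is also known to bind the mitochondrial RNA polymerase. It had 12.8, 11.8 and 10.1 FPKM in HF, against 13.5, 20.1 and 14.6 FPKM in LF. The groups were separated by a narrow gap between HF01 and LF01 (log2 fold change -0.46, SE 0.22, limma adjusted p = 0.233).

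Large subunit members classed here as mitochondria-specific spanned a wider range, with MRPL55 and MRPL57 at its ends. The lower end of that range, and the counts and medians of both classes, rest on the class given here to MRPL55. Counting proteins by their place in the ribosome, 14 of 16 were negative, with a median of -0.41. MRPL52 had 37.2, 38.0 and 32.2 FPKM in HF, against 57.0, 56.7 and 62.9 FPKM in LF, with tight groups (log2 fold change -0.72, limma adjusted p = 0.0899). MRPL51 had 55.7, 43.4 and 53.5 FPKM in HF, against 54.2, 70.9 and 71.7 FPKM in LF, so that HF01 lay above LF01 (log2 fold change -0.36).

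MRPL40 had 4.34, 3.75 and 4.25 FPKM in HF, against 4.22, 5.39 and 5.76 FPKM in LF (log2 fold change -0.30), with overlap through LF01. The MRPL40 model lies wholly within that of MED15, which stood at 7.51 to 10.15 FPKM in HF and 8.68 to 12.71 FPKM in LF. MRPL37 had 55.2, 23.8 and 33.5 FPKM in HF, against 32.3, 32.0 and 33.2 FPKM in LF. Its LF pigs agreed closely, whereas HF01 and HF02 stood on opposite sides of them. Its log2 fold change of 0.12 was -0.20 without HF01.

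**Figure D3:**
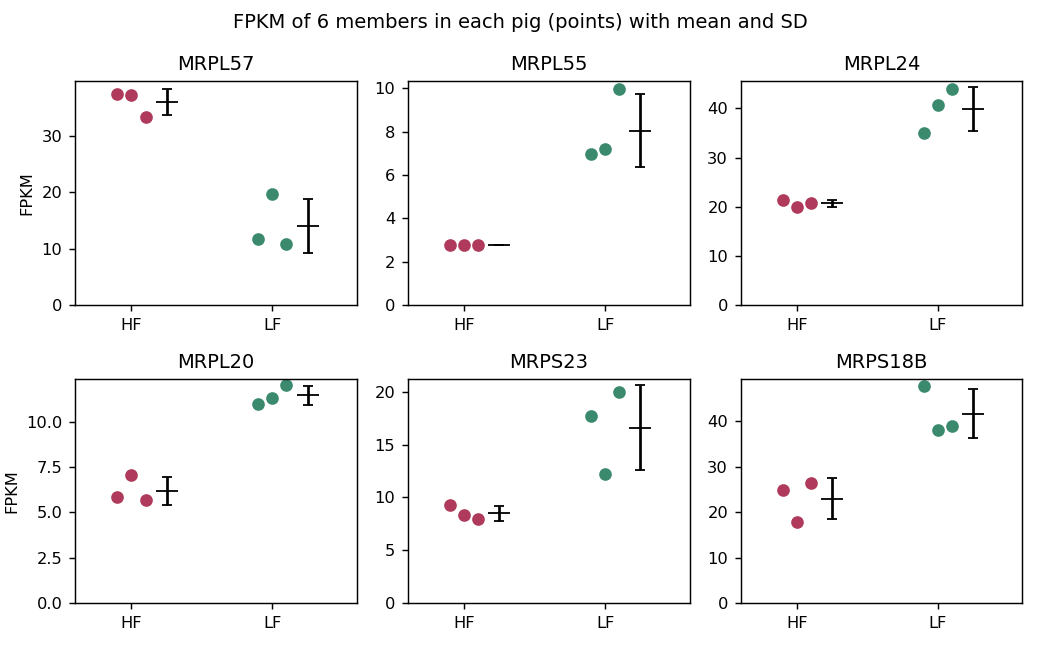
FPKM (y axis, from 0) of MRPL57, MRPL55, MRPL24, MRPL20, MRPS23 and MRPS18B in each pig (points), with the group mean and SD beside them. In each panel the HF and LF points are separated, upward in HF for MRPL57 (33.4 to 37.4 against 10.9 to 19.7) and downward in HF for the other 5 members.

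In the small subunit, which binds the message and holds the decoding centre, 19 of 22 members had a negative log2 fold change, of which MRPS9, MRPS12, MRPS24, MRPS26 and MRPS30 turned positive under upper-quartile scaling. The median was -0.24 and 11 members were separated downward. The summed level was 302.2, 241.8 and 318.8 FPKM in pigs HF01 to HF03, against 352, 349.4 and 385.3 FPKM in pigs LF01 to LF03. These sums of FPKM as deposited again did not overlap, while under upper-quartile scaling HF01 lies above LF01.

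Within the small subunit, members classed as mitochondria-specific and members with a bacterial homologue had different medians. Of the 8 mitochondria-specific proteins of the small subunit, 7 were negative and the median was -0.60. Of the 12 with a bacterial homologue, 10 were negative and the median was -0.18. With MRPS18B, which has distant bacterial relatives, moved to the homologues, the medians were -0.47 (7 members) and -0.19 (13 members). In the large subunit the order was the opposite, at -0.41 and -0.48. Neither difference was tested.

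MRPS23 had 9.27, 8.31 and 7.92 FPKM in HF, against 17.7, 12.2 and 19.97 FPKM in LF (log2 fold change -0.93, SE 0.23, limma adjusted p = 0.0899). LF02 was the lowest of its group and still above every HF pig. MRPS18B had 24.8, 17.8 and 26.4 FPKM in HF, against 47.9, 38.0 and 39.0 FPKM in LF, with all HF pigs well below (log2 fold change -0.87, SE 0.22, limma adjusted p = 0.0899).

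Mammals carry 3 genes related to a single bacterial protein of the small subunit, and their products sit at different places of the ribosome. MRPS18A and MRPS18B are classed as mitochondria-specific here because they do not take the place of the bacterial protein. Besides MRPS18B these are MRPS18A, which belongs to the large subunit in spite of its name, and MRPS18C. MRPS18A had 34.5, 24.0 and 40.2 FPKM in HF, against 42.0, 43.6 and 48.1 FPKM in LF, separated only by the gap from HF03 to LF01 (log2 fold change -0.47, limma adjusted p = 0.249). MRPS18C had 9.20, 7.62 and 7.67 FPKM in HF, against 7.87, 11.05 and 9.05 FPKM in LF, and overlapped (log2 fold change -0.18). MRPS18C shares bases with ABRAXAS1 and HELQ, both near 1 FPKM.

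MRPS34 had 12.2, 9.68 and 9.04 FPKM in HF, against 16.2, 14.2 and 28.5 FPKM in LF. It was among the 3 members with the widest spread within groups, because LF03 stood far above the other LF pigs (log2 fold change -0.86, SE 0.28, limma adjusted p = 0.124). The model of NME3, a nucleoside diphosphate kinase gene, shares 1236 bases with it. NME3 had 6.03, 5.15 and 4.35 FPKM in HF, against 9.58, 11.2 and 11.3 FPKM in LF (log2 fold change -1.04), and shared the order of groups with MRPS34. MAPK8IP3 shares 1215 bases with MRPS34 and had 2.06, 2.34 and 2.78 FPKM in HF, against 2.43, 2.37 and 2.67 FPKM in LF, with overlapping groups (log2 fold change -0.06).

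MRPS7, a protein of the head of the subunit in bacteria and the member with the lowest mean, had 2.60, 1.88 and 2.24 FPKM in HF, against 3.05, 3.85 and 3.72 FPKM in LF (log2 fold change -0.64, limma adjusted p = 0.1204). The MRPS7 model lies wholly within that of MIF4GD, which stood at 4.15 to 9.12 FPKM in HF and 7.32 to 10.2 FPKM in LF. It also shares 4512 bases with GGA3. MRPS30, which despite its symbol is part of the large subunit, differed little, with 4.48, 4.16 and 4.80 FPKM in HF, against 4.95, 4.08 and 4.78 FPKM in LF. Its log2 fold change of -0.04 (SE 0.18) turned positive, to 0.12, under upper-quartile scaling.

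The positive members of the small subunit were close to 0 and overlapped. MRPS22 had 8.29, 7.45 and 9.60 FPKM in HF, against 7.65, 6.48 and 9.12 FPKM in LF (log2 fold change 0.13). It shares 7998 bases with COPB2, which stood at 15.54 to 17.43 FPKM in HF and 17.49 to 22.62 FPKM in LF. MRPS2 had 8.88, 5.65 and 9.40 FPKM in HF, against 8.60, 5.55 and 7.77 FPKM in LF (log2 fold change 0.12, and -0.07 without LF02 or -0.02 without HF03).

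MRPS6 varied more between pigs of a group than any other member, with 31.4, 8.92 and 38.4 FPKM in pigs HF01 to HF03, against 20.2, 15.6 and 23.6 FPKM in pigs LF01 to LF03. The HF group held both the highest and the lowest pigs. The log2 fold change of 0.18 (SE 0.50) was -0.07 without HF01 and -0.22 without HF03. SLC5A3, whose whole span lies within that of MRPS6, was listed at no more than 0.583 FPKM in any pig.

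Large and small subunit were then set against each other. The median log2 fold change of the large subunit was 0.22 lower than that of the small subunit (a difference of -0.22). It was also -0.22 when MRPS18A and MRPS30 were counted with the large subunit (38 and 20 members), and it was -0.16 without HF03. The ratio of summed FPKM, large over small, was 2.49, 2.59 and 2.16 in pigs HF01 to HF03, against 2.45, 2.82 and 2.56 in pigs LF01 to LF03. These ratios overlapped between the groups, so the lower sums of deposited FPKM in HF were found in both subunits with no separation of their proportion.

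**Figure D4:**
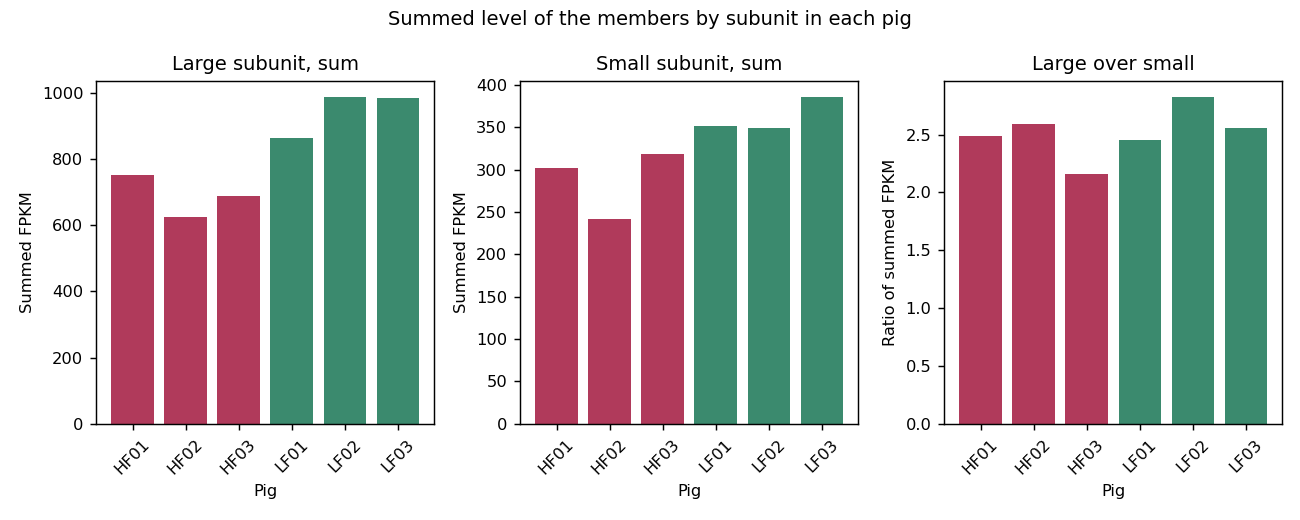
Summed FPKM of the 36 large and the 22 small subunit members and the ratio of both sums in each pig (bars from 0, HF in red and LF in green). In FPKM as deposited, the sums of the HF pigs lie below those of the LF pigs in both subunits. Under upper-quartile scaling HF01 lies above LF01 in both. The ratios overlap, at 2.16 to 2.59 in HF and 2.45 to 2.82 in LF.

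The members were scattered over 17 chromosomes, with at most 7 on any of them (chromosomes 2 and 12). MRPL41 and MRPS2 lay on an unplaced scaffold. MRPS11 and MRPL46 are neighbours on chromosome 1, 360 bases apart. MRPL46 had 15.8, 14.3 and 16.3 FPKM in HF, against 19.8, 28.3 and 27.5 FPKM in LF (log2 fold change -0.68, limma adjusted p = 0.112). MRPS11 had 5.34, 4.53 and 5.40 FPKM in HF, against 5.42, 6.21 and 6.80 FPKM in LF (log2 fold change -0.26, limma adjusted p = 0.407). Both were separated downward, MRPL46 by more. The ratio of MRPL46 to MRPS11 was 2.96, 3.15 and 3.02 in HF, against 3.65, 4.56 and 4.05 in LF. These neighbours were looked up because of their position, after the values were seen.

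Many member models overlap other listed genes, 55.2% against 43.7% of all listed genes above the minimum level. The median log2 fold change was -0.46 for the 26 members that overlap no other gene and -0.39 for the 32 that do. Of the 26, 25 were negative and 16 were separated downward.

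A further 11 genes of the mitochondrial ribosome had a blank symbol in the table and were named from a gene name table by their IDs. All 11 were negative in log2 fold change (median -0.59), and 7 were separated downward. MRPL33 was the most abundant of all, with 155, 174 and 138 FPKM in HF, against 262, 282 and 190 FPKM in LF, which did not overlap (log2 fold change -0.64, limma adjusted p = 0.139).

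MRPS33 had 15.3, 26.0 and 20.8 FPKM in HF, against 42.9, 39.9 and 35.2 FPKM in LF (log2 fold change -0.95, limma adjusted p = 0.0899). MRPL45, which anchors the ribosome to the inner membrane, had 43.0, 28.9 and 30.3 FPKM in HF, against 52.2, 67.7 and 36.1 FPKM in LF, with overlap through HF01 and LF03. With these genes included, 64 of 69 were negative and the median was -0.46.

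Of the mitochondrial ribosomal proteins that carry other names, 4 of 5 were negative in log2 fold change, with a median of -0.44. CHCHD1 had 22.2, 28.4 and 17.8 FPKM in HF, against 34.0, 43.5 and 45.5 FPKM in LF (log2 fold change -0.86, limma adjusted p = 0.0989). AURKAIP1 and DAP3, a GTP-binding protein, were also separated downward (log2 fold changes -0.51 and -0.44). The log2 fold change of PTCD3 was 0.02.

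Of 23 tested factors that assemble the mitochondrial ribosome, 20 were negative, with a median of -0.46, and at an unadjusted p under 0.05 there were 11 lower (47.8%, beside 13.8% of all tested genes). RPUSD4, which modifies the large ribosomal RNA, had 2.01, 1.86 and 2.25 FPKM in HF, against 5.08, 3.81 and 3.88 FPKM in LF (log2 fold change -1.02, limma adjusted p = 0.0808). MPV17L2, needed for the assembly of the ribosome, had 8.44, 7.29 and 5.86 FPKM in HF, against 13.3, 11.2 and 14.2 FPKM in LF (log2 fold change -0.84, limma adjusted p = 0.0899). FASTKD2, an RNA-binding factor, had 6.22, 6.02 and 6.29 FPKM in HF, against 9.12, 8.55 and 9.84 FPKM in LF (log2 fold change -0.56). All were separated, and none of the list was called.

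Of the translation factors, 12 of 15 were negative, with a median of -0.25. TSFM, the exchange factor of mitochondrial elongation, had 21.2, 15.9 and 17.7 FPKM in HF, against 25.2, 26.7 and 36.9 FPKM in LF (log2 fold change -0.68). MTRF1L, a release factor, stood at -0.56. GFM2, which splits ribosomes for recycling, had 3.08, 3.62 and 4.25 FPKM in HF, against 2.29, 2.23 and 2.31 FPKM in LF, higher in all 3 HF pigs (log2 fold change 0.65, limma adjusted p = 0.110).

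Genes of mitochondrial transcription were negative in 6 of 6 cases, with a median of -0.30. TFAM, which packages mitochondrial DNA and starts its transcription, had 14.1, 21.1 and 14.2 FPKM in HF, against 21.8, 26.8 and 31.7 FPKM in LF (log2 fold change -0.70, limma adjusted p = 0.132). MTERF1 and TFB2M were at -0.58 and -0.45.

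Mitochondrial tRNA synthetases did not share the direction, with 9 of 17 negative and a median of -0.03, equal at this rounding to that of all tested genes. TARS2, HARS2 and RARS2 were separated downward (log2 fold changes -0.63, -0.52 and -0.46), which is 17.6% of the list beside 17.1% of all tested genes, and PARS2 was separated upward (0.51). Nuclear regulators of these genes were balanced as well, with 5 of 10 negative and a median of -0.01. The median mean level was 2.47 FPKM in the synthetases and 2.99 FPKM in the regulators, against 14.4 FPKM in the members. It was 4.50 FPKM in assembly factors, 5.90 FPKM in translation factors and 4.54 FPKM in genes of mitochondrial transcription. The part of level in these contrasts was not tested. The coactivator gene PPARGC1B had 1.12, 1.12 and 2.34 FPKM in HF, against 0.360, 0.727 and 0.579 FPKM in LF (log2 fold change 1.27, limma adjusted p = 0.110). GABPB2 and PPARGC1A stood at 0.69 and 0.32, with overlapping groups. None of these lists had a called gene.

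The messages that the mitochondrial ribosome translates were not lower in HF as a list. Of 13 mitochondrially encoded genes, 4 were negative and the median was 0.26. Without the 4 genes listed at 0 in LF02, whose fitted log2 fold changes of 6.13 to 7.22 rest on those zeros, 4 of 9 were negative and the median was 0.08. ND4L had 6719, 6844 and 5637 FPKM in HF, against 3759, 3967 and 3836 FPKM in LF (log2 fold change 0.73, limma adjusted p = 0.101). ND6 stood at -0.83 and ND2 at 0.47, both with overlapping groups.

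**Figure D5:**
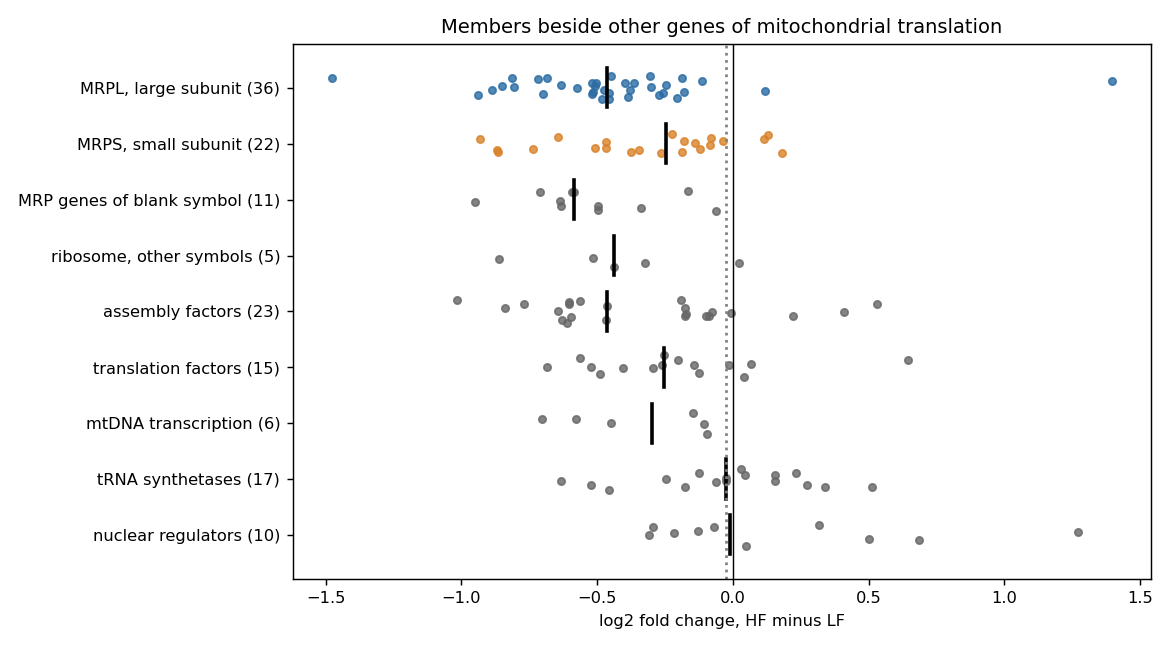
log2 fold change (x axis, HF minus LF) of single genes (points) in the members and in other lists of mitochondrial translation, with the number of genes in brackets, the median as a black bar and the median of all tested genes as a dotted line. Medians are -0.24 to -0.59 in both subunits, the further MRP genes, other ribosomal proteins, assembly factors, translation factors and genes of mitochondrial transcription. They are -0.03 in tRNA synthetases and -0.01 in nuclear regulators.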

How the data were processed

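RNA of the longissimus dorsi of 6 pigs was sequenced as paired reads. Read cleaning by the authors used fastp, alignment to Sscrofa11.1 used HISAT2, and cufflinks gave the deposited FPKM values, which are scaled to transcript length and to the mapped fragments of each library. Counts per pig were not used here, so no counting intervals are given. The table also holds the authors' own DESeq2 comparison from HTSeq counts (mean, log2 fold change, its error, statistic and p-values), which was not used. Columns were matched to pigs by name, and 0 were left unmapped.

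Groups were compared with limma 3.58.1 in R 4.3.3 (eBayes with trend, two-sided) on log2(FPKM + 0.1) for 11136 genes whose mean reached 0.5 FPKM, adjusted by Benjamini-Hochberg over all of them. The samples are different pigs of 1 farm, so p-values measure the spread between these pigs. All 58 members passed the filter.

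The members and lists were chosen with earlier results of these data known. Values are given for the 10 members with the smallest p in each direction, the 6 highest and 4 lowest in mean FPKM, every positive member, the 3 of widest spread, those with special places in the ribosome, and up to 3 genes per further list. Values outside that rule were chosen after they were seen. Deposited starts count from 0, and 1 was added. Blank symbols (8278) were filled by gene ID for 1088 genes. MRPL14, MRPL23, MRPL32, MRPL42, MRPL53, MRPS16, MRPS17, MRPS21 and MRPS36 were not analysed here, and promoter motifs and protein sequences were not examined. The study's phenotype table gives another age than the labels.

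Alternatives were a pseudocount of 1 or 0.01, no minimum or 5 FPKM or a level above 0 in every pig, median-of-ratios and upper-quartile scaling, fits without trend or with robust eBayes, a block for the replicate number, leaving out each pig, an adjusted p under 0.10, the study's thresholds (adjusted p under 0.01, log2 fold change over 1), members without overlap and subunits by place. Genes at the members' level, also per pig, the 11 blank-symbol genes, the class of MRPS18A and MRPS18B, and mitochondrial genes without zeros were added after the values were seen.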

Additional observations from a re-analysis of the deposited data

How the results depend on the processing

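The median log2 fold change of the members (-0.42) was negative in every alternative run. It was -0.26 under upper-quartile scaling, where the median of all tested genes was 0.13 instead of -0.03, and it ran from -0.49 to -0.34 with each pig left out. The count of negative members was 47 under that scaling and 49 to 55 of 58 with each pig left out. The difference between the subunits stayed negative, at -0.24 to -0.16 with each pig left out (-0.16 without HF03). Members called lower numbered 1 (MRPL55) under median-of-ratios scaling, upper-quartile scaling, the robust fit and without LF02, and members called higher numbered 1 (MRPL57) without LF02. With each pig left out both counts ran from 0 to 1. At an adjusted p under 0.10 they were 10 lower and 1 higher. Both were 0 when the study's thresholds were applied to this limma fit on FPKM. The study applied those thresholds to DESeq2 on read counts, and the paper reports MRPL57 as its most significantly differing gene. Genes called in the whole table numbered 8, against 1 to 82 over the alternatives (82 under upper-quartile scaling, 72 without LF02, 22 under median-of-ratios scaling, 15 without HF01, 14 in the robust fit, 4 without HF02, 2 without LF03 or without trend, and 1 without LF01 or with no minimum). Members lower at an unadjusted p under 0.05 numbered 13 under upper-quartile scaling and without HF02, against 25. Members under an adjusted p of 0.10 numbered 1 with no minimum and 5 without trend, against 11. Of the named members, those that turned sign ran, with each pig left out, from -0.068 to 0.34 (MRPS2, negative without HF03 or LF02), -0.20 to 0.40 (MRPL37, negative without HF01), -0.22 to 0.83 (MRPS6, negative without HF01 or HF03), -0.12 to 0.018 (MRPS30, positive without HF02 or LF01) and -0.28 to 0.042 (MRPL21, positive without HF02 or LF03). Under upper-quartile scaling MRPS30 was 0.12 and MRPL21 0.045. The cause of these shifts was not tested.

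The replicate numbers of HF and LF pigs share only a number: same-numbered pigs had correlations of -0.043, 0.088 and 0.016 in their deviations from the group means, and not every pig correlated best with its own number. With the replicate number as a block, 14 genes of the whole table and 0 members were called, 1 member had an adjusted p under 0.10, and the lowest adjusted p of a member was 0.0750. With 3 pigs a group and no counts, depth behind single values is unknown, and members that did not pass the test were not shown to be equal. The planned search for promoter motifs was not run.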
